A study of Mus musculus with 16 samples.

Results

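Growth factors and morphogens carry signals between cells, and the genes described here encode such ligands, their receptors, the secreted proteins that bind or release them, and a few proteins that share their gene names. They were chosen by symbol: Wnt and Frizzled, Fgf and Fgfr, Bmp, Tgfb and inhibin, Igf, Igfbp and Igfals, Notch, Jagged and Delta, ephrins and Eph receptors, Pdgf, Vegf, Egfr and Hgf activator. The rule gave 68 of the 9669 genes with a symbol of their own on the array, and it left out Igf1 and Igfbp2. Of the 68 genes, 5 had 2 probes and the others 1. By role, 32 were ligands, 23 receptors, 7 modulators of ligands and 6 other proteins that share a name but were not counted in those roles.

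The organs came from male wildtype mice of the inbred strain C3HeB/FeJ, aged 105 ± 5 days and kept free of specified pathogens, with no treatment. On 7 2-colour cDNA arrays the left kidney of mouse 1, 2 or 3 was compared with RNA pooled from 5 livers, and on 9 arrays the dorsal liver lobe of the same mice with RNA pooled from 5 kidneys. Repeat arrays of a mouse and organ share their RNA and were averaged, so each gene has at most 6 averages: 3 mice on the kidney arrays and 3 mice on the liver arrays. Every value below is a difference, the log2 ratio of kidney over liver, and levels of different genes were not compared. Whole organs were measured, so fewer cells of a type and less RNA per cell cannot be told apart.

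Insulin-like growth factors circulate bound to binding proteins and to the acid-labile subunit, and the liver is a main source of that complex in blood. Epidermal growth factor receptor and the hepatocyte growth factor system act on epithelial growth and repair in both organs, and vascular endothelial growth factor maintains capillaries such as those of the glomerulus. Bone morphogenetic proteins, Wnt ligands, fibroblast growth factors, Notch and ephrin signals pattern the developing nephron and bile ducts, and they persist in the adult mainly in restricted cell populations.

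Promoters are shown for 4 genes of the ligand-binding and ligand-activating group, as RefSeq gives them on GRCm38.p6, because this group held the largest differences in both directions. Each runs from 250 bases before the start of the transcript to 50 bases after it, 5′ to 3′ on the gene's strand, with motif matches in capitals. Hgfac lies at chr5:35041259-35041558 (+), Igfals at chr17:24877594-24877893 (+, the first of 3 listed starts), Igfbp3 at chr11:7213874-7214173 (-) and Igfbp1 at chr11:7197537-7197836 (+).
Hgfac: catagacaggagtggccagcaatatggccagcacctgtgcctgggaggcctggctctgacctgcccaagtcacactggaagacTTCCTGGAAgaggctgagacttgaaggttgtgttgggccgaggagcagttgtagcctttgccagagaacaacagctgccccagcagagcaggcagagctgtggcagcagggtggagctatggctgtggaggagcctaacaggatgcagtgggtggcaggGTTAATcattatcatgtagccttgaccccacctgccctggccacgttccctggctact
Igfals: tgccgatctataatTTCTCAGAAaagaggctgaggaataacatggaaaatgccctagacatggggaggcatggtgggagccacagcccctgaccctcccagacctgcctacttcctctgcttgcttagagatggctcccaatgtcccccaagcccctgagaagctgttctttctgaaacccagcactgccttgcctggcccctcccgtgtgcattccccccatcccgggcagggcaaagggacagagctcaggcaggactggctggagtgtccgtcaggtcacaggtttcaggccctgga
Igfbp3: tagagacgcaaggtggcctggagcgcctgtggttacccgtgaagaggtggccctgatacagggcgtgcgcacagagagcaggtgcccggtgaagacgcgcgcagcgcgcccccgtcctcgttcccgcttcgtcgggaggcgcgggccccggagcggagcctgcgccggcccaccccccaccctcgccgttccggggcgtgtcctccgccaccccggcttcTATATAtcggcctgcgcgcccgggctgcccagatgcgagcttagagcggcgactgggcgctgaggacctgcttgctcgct
Igfbp1: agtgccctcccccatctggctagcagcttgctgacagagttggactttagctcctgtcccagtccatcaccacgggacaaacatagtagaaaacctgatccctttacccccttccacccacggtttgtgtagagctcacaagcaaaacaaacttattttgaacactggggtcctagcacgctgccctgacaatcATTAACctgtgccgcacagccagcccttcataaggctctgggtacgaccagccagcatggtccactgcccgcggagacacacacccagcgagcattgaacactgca
The motifs searched, on both strands, were GTTAAT, the half-site of the liver and kidney factor HNF1, TTCNNNGAA, the site of STAT proteins that act below the growth hormone receptor, and TATATA. No matches overlapped in the promoters shown. Counted from 1 at the start, with no position 0, Hgfac held the HNF1 half-site from -8 to -3 and the STAT motif from -167 to -159. Igfals held the STAT motif from -236 to -228, Igfbp3 held TATATA from -30 to -25, and Igfbp1 held the HNF1 half-site on the opposite strand from -56 to -51. Of 32851 mouse promoters of this length, 2332 held the HNF1 half-site (7.10%), 2726 the STAT motif (8.30%) and 1863 TATATA (5.67%). Promoters were at hand for 53 of the 68 genes. A gene was counted if the promoter of any of its listed starts held the motif, so these counts and the shares per promoter are unlike units. Among 15 liver-high genes with a promoter, 3 held the HNF1 half-site (Hgfac, Egfr and Jagn1), 2 the STAT motif (Hgfac and Igfals) and 1 TATATA (Fgf4). The 11 kidney-high genes held 0, 1 (Notch3) and 2 (Dll4 and Igfbp3), and 24 genes not called either way held 1 (Igfbp1), 1 (Wnt5b) and 0. The matches describe these letters in this window and are not binding sites.

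The direction of the ratio follows marker genes of hepatocytes and kidney tubules and is opposite to the order in which the array titles name the samples. With the title order, kidney and liver would change places in every sentence. On this reading 9 of 9 measured hepatocyte markers were higher in liver and 8 of 8 proximal tubule markers higher in kidney, which is how the direction was set and no evidence for it. The deposited ratios of mice 1 and 3 had array medians within 0.003 of 0, but the 6 arrays of mouse 2 had kidney over liver medians from -1.49 to -1.19. Each array was therefore centred on its median. The gap between mouse 2 and the other mice depended on signal, with a median of -0.30 over probes whose values rarely recur on an array, taken as bright, and -1.43 over those whose values mostly recur, taken as dim. Centring moved bright genes of mouse 2 towards kidney by more than their own gap, so its values as deposited are given beside the centred ones where this matters. Of the 68 genes, 9 were bright, 26 between, 19 dim, and 14 had values on too few arrays to tell. Among the genes called below, Bmp6, Efnb3, Epha4, Fgf9 and Tgfbi were dim. Bmp1, Fzd3, Inhba, Inhbe and Jagn1 were called with too few arrays to tell.

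Growth factor and morphogen genes differed between the organs in both directions. Of 62 genes with values in at least 2 mice on each kind of array, 15 were higher in kidney (24.2%; 19.3% of all 9047 genes tested) and 18 higher in liver (29%; 12.4% of all genes), at an adjusted p under 0.05 from limma with Benjamini-Hochberg adjustment over all genes. The median difference was -0.06, against -0.01 over all genes. Modulators lay mostly on the liver side, with 5 of 7 higher in liver, 1 higher in kidney (Igfbp3) and 1 not called (Igfbp1). Of 23 receptors tested, 6 had a kidney excess and 3 a liver excess. Of 27 ligands tested, 6 had a kidney excess and 7 a liver excess. The differences between roles were not tested. The 5 other proteins tested were all called, Fgfr1op2 and Tgfbrap1 higher in kidney and Pdgfrl, Jagn1 and Tgfbi in liver.

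The calls depended on the scaling of mouse 2 and on single mice. Without mouse 1 the counts were 9 and 5 of 49 genes tested (11.2% and 4.36% of all genes), and without mouse 3 they were 11 and 7 of 60 (14.4% and 6.23% of all genes). Values as deposited gave 5 calls on the kidney side and 13 on the liver side (5.47% and 8.71% of all genes), and the median of all genes itself moved to -0.48. Without mouse 2 the counts were 11 and 16 of 50 genes tested (20.2% and 15.7% of all genes), and with mouse 2 aligned to the others by signal they were 17 and 18 (20.2% and 17% of all genes). Kidney and liver averages of a mouse come from the same animal and deviate together, and with the mouse number as a random block 11 and 11 genes were called (13.8% and 6.26% of all genes). With it as a fixed block the counts were 11 and 8 (11.6% and 5.25% of all genes). In 7 alternative fits (as deposited, mouse 2 aligned, each mouse left out, both blocks), 5 genes were called higher in kidney every time (Igfbp3, Igf1r, Tgfbr2, Bmp7 and Igf2r) and 4 higher in liver every time (Hgfac, Igfals, Igfbp6 and Pdgfrl). For Igf1r this holds for the mean of 2 probes that disagreed (0.03 and 3.52 after centring).

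**Figure D1:**
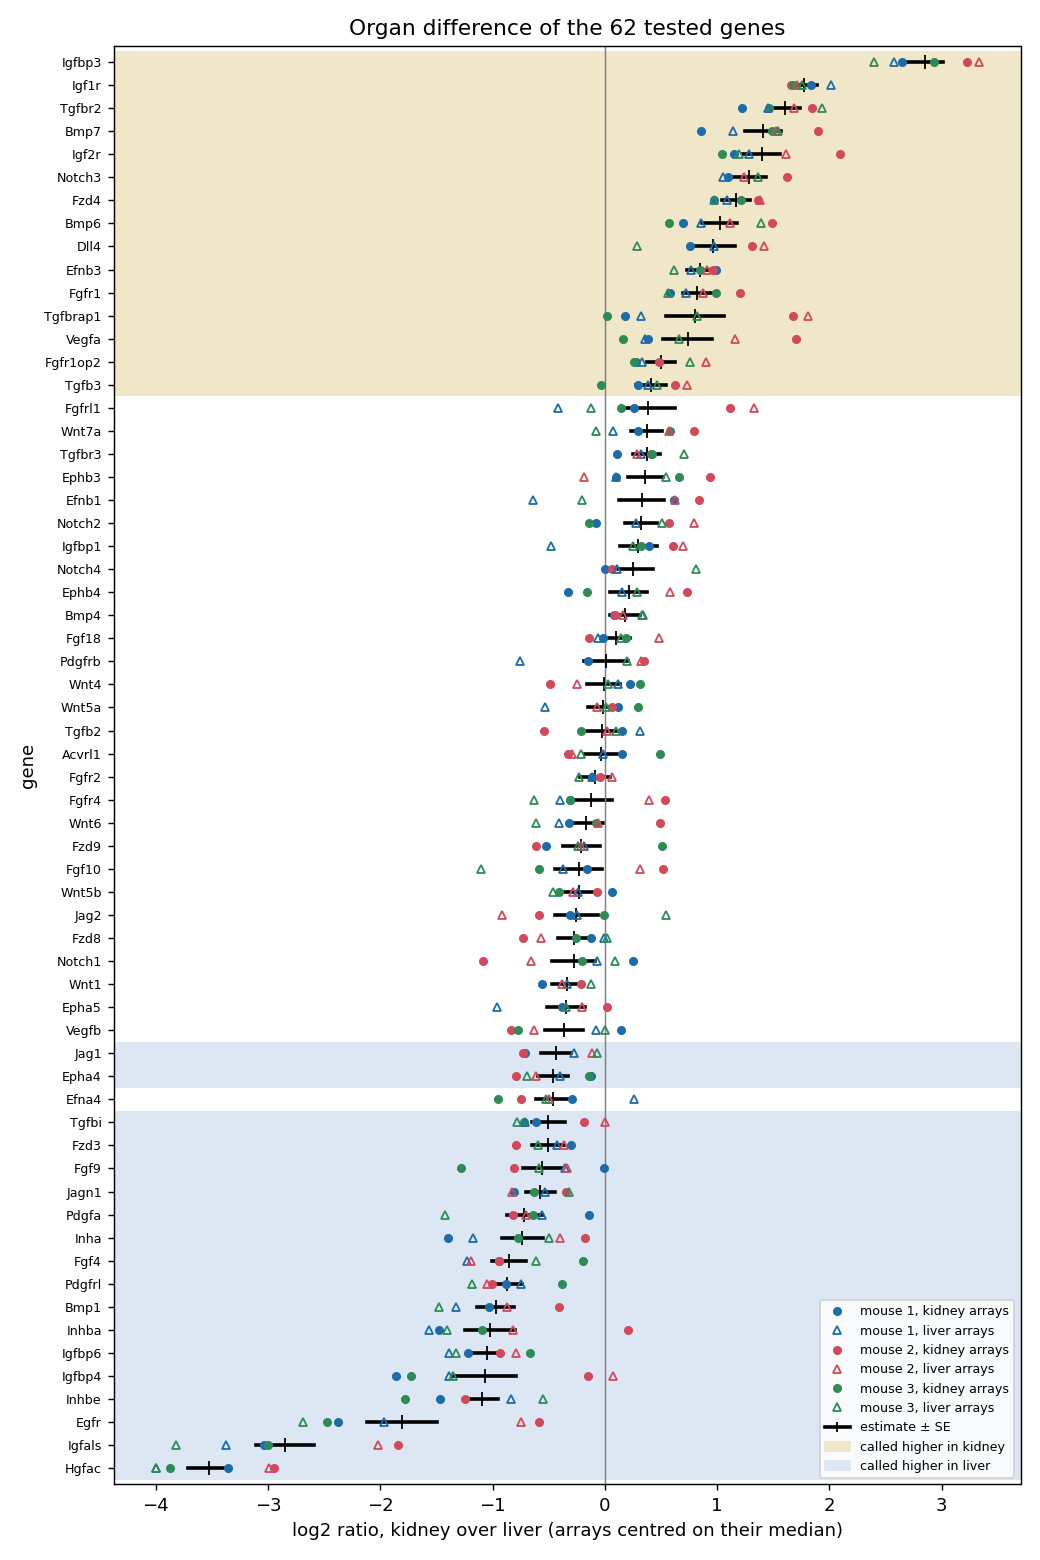
Kidney over liver (log2, centred arrays) of the 62 tested genes, with a point for each mouse on the kidney arrays (filled) and the liver arrays (open), the estimate ± SE as a bar, and shading for genes called. Igfbp3 lies between 2.40 and 3.34 in all averages, and Egfr, Igfbp4 and Igfals have mouse 2 nearest 0 and apart from mice 1 and 3.

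The insulin-like growth factor system held the largest kidney excess and the second largest liver excess. Igfbp3, the main carrier of circulating IGF, had values of 2.65, 3.23 and 2.94 on the kidney arrays of mice 1, 2 and 3 and 2.58, 3.34 and 2.40 on the liver arrays. All 6 values were far above 0, and mouse 2 as deposited gave 1.85 and 2.00. Its difference was 2.85 ± 0.16 (SE), a 7.22-fold excess in kidney (adjusted p = 4.46e-06). This SE, like those below, comes from at most 6 averages of 3 mice that the fit took as independent. With the mouse as a fixed block the limma adjusted p for Igfbp3 was 0.000116. Igfals, the acid-labile subunit that joins IGF and Igfbp3 in a long-lived blood complex, had -3.04, -1.85 and -3.00 on the kidney arrays and -3.37, -2.02 and -3.82 on the liver arrays. Mouse 2 lay nearest 0 after centring, but at -3.22 and -3.35 as deposited it lay with the other mice. The difference was -2.85 ± 0.26, a 7.21-fold excess in liver (adjusted p = 8.59e-05), and -3.31 without mouse 2. The carrier and the subunit of the same blood complex thus differed in opposite directions, and as deposited by 2.40 and -3.30.

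Of the other binding proteins tested, Igfbp4 and Igfbp6 were higher in liver and Igfbp1 was not called. Igfbp6, which prefers IGF2, had -1.22, -0.93 and -0.66 on the kidney arrays and -1.39, -0.79 and -1.33 on the liver arrays, all below 0. It was 2.08-fold higher in liver (-1.05 ± 0.14, adjusted p = 0.000719). Igfbp4, which holds IGF away from its receptor until cleaved, had -1.86, -0.15 and -1.72 on the kidney arrays and -1.39, 0.08 and -1.35 on the liver arrays. The centred mouse 2 values stood apart, while as deposited they were -1.52 and -1.26, near those of the other mice. The fit gave -1.07 ± 0.28 (adjusted p = 0.0199), or -1.58 without mouse 2 (adjusted p = 5.34e-05). With the mouse as a fixed block the adjusted p was 0.0633, and it was 0.188 without mouse 1 and 0.154 without mouse 3. Igfbp1, a binding protein that hepatocytes secrete under insulin control, had a difference of 0.30 ± 0.16 (adjusted p = 0.196), with 5 of 6 averages above 0. The average below 0, mouse 1 on the liver arrays (-0.48), held a single array at -2.22 beside 0.40 and 0.38.

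Of the IGF receptors, Igf2r was higher in kidney and the probes of Igf1r disagreed. Igf2r, the mannose-6-phosphate receptor that takes up and degrades IGF2, had 1.15, 2.09 and 1.04 on the kidney arrays and 1.29, 1.61 and 1.20 on the liver arrays. Every average was above 1 after centring, and the difference was 1.40 ± 0.16, or 2.63-fold (adjusted p = 0.000396). As deposited mouse 2 had 0.72 and 0.27, and the Igf2r difference was 0.94 (limma adjusted p = 0.0264). Igf1r, the signalling receptor for IGF1, had a mean of 1.78 ± 0.12 (adjusted p = 1.19e-05), but its 2 probes disagreed. The first gave 0.03 ± 0.13 (adjusted p = 0.865) and the second 3.52 ± 0.15 (adjusted p = 6.68e-07, both over all probes), with the second between 3.06 and 4.13 in every average. The mean therefore describes neither probe, and which of them reports the receptor was not tested. Of 16 listed partners of the pathway 10 were tested, and 3 were higher in kidney and 1 in liver. They included Htra1, a protease that cleaves IGF-binding proteins (4.57), Pik3ca, a catalytic subunit of PI3 kinase (0.71), and on the liver side Stat5b, which acts below the growth hormone receptor (-0.44, with the call lost under the fixed block at an adjusted p of 0.171).

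The hepatocyte growth factor, EGF, PDGF and VEGF group leaned to the liver, with 4 of 7 tested genes higher in liver and 1 higher in kidney. Hgfac, the blood protease that activates hepatocyte growth factor, had the largest difference among the 62 tested growth factor and morphogen genes. Its values were -3.36, -2.94 and -3.87 on the kidney arrays and -4.002, -2.99 and -3.998 on the liver arrays. No average came near 0, and the difference was -3.53 ± 0.18, an 11.5-fold excess in liver (adjusted p = 3.14e-06). Egfr, the receptor for EGF, had -2.37, -0.58 and -2.48 on the kidney arrays and -1.97, -0.74 and -2.69 on the liver arrays. As deposited, mouse 2 had -1.96 and -2.08, close to the other mice. The fit gave -1.81 ± 0.31, a 3.49-fold excess in liver (adjusted p = 0.003), with -2.38 without mouse 2 and an adjusted p of 0.0575 without mouse 1. Both Egfr probes were called, at -1.47 and -2.14.

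Smaller differences were found among the PDGF and VEGF genes. Pdgfrl, a protein that resembles the PDGF receptor, was higher in liver in all 6 averages, from -1.18 to -0.38 (-0.87 ± 0.13, adjusted p = 0.00167). Pdgfa, a ligand for PDGF receptors on mesenchymal cells, had values from -1.43 to -0.14 (-0.72 ± 0.16, adjusted p = 0.0103, and 0.0539 with the fixed block). Vegfa, the main endothelial growth factor, had 0.39, 1.70 and 0.16 on the kidney arrays and 0.36, 1.16 and 0.66 on the liver arrays. Mouse 2 was highest on both kinds of array after centring, and had 0.33 and -0.17 as deposited. The difference was 0.74 ± 0.22 (adjusted p = 0.0321), 0.39 without mouse 2 (adjusted p = 0.0395), and not called as deposited (0.28, adjusted p = 0.314) or with the fixed block (adjusted p = 0.0952). Vegfb (-0.36 ± 0.17, adjusted p = 0.132) and Pdgfrb, the receptor of pericytes and stellate cells (0.01 ± 0.20, adjusted p = 0.975), were not called. Among 18 tested partners of 42 listed, 3 were higher in kidney, with St14, the protease matriptase (1.17), and Map2k1 (0.58, adjusted p = 0.172 with the fixed block) leading, and 1 in liver, the receptor Mst1r (-0.75).

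The TGF-beta superfamily was divided, with 5 of 14 genes higher in kidney, 5 higher in liver and 4 not called. On the kidney side Tgfbr2, the receptor that binds TGF-beta, had 1.22, 1.84 and 1.46 on the kidney arrays and 1.45, 1.69 and 1.94 on the liver arrays. All averages exceeded 1 after centring, and the difference was 1.60 ± 0.13, or 3.03-fold (adjusted p = 5.73e-05). As deposited mouse 2 had 0.47 and 0.35, and the Tgfbr2 difference was 1.15 (limma adjusted p = 0.0246). Bmp7, a ligand needed for nephron formation and kept in adult tubules, had 0.86, 1.90 and 1.49 on the kidney arrays and 1.14, 1.53 and 1.55 on the liver arrays. It was 2.66-fold higher in kidney (1.41 ± 0.16, adjusted p = 0.000299). As deposited mouse 2 had 0.53 and 0.19, and the Bmp7 difference was 0.96 (limma adjusted p = 0.0412). Bmp6, known in the liver for control of hepcidin, had values from 0.58 to 1.49 and a difference of 1.02 ± 0.16 (adjusted p = 0.00167). As deposited the Bmp6 difference was 0.57 and not called (adjusted p = 0.154), and without mouse 2 it was 0.88 (limma adjusted p = 0.00217).

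Of the 5 genes higher in liver, 3 were inhibin and activin subunits. Inhbe, an activin subunit made by hepatocytes, had -1.47, -1.25 and -1.78 on the kidney arrays and -0.84 and -0.55 in mice 1 and 3 on the liver arrays. Its difference was -1.10 ± 0.15, or 2.14-fold (adjusted p = 0.00138), from 5 arrays in all. Inhba, the subunit of activin A, had -1.48, 0.21 and -1.10 on the kidney arrays and -1.56, -0.82 and -1.41 on the liver arrays. One centred value of mouse 2 was above 0, and as deposited it was -1.16. The difference was -1.03 ± 0.22 (adjusted p = 0.00927), and the adjusted p was 0.115 without mouse 1 and 0.0908 without mouse 3. Inha, the subunit that makes inhibins of activin chains, was also higher in liver (-0.74 ± 0.18, adjusted p = 0.0173, and 0.075 with the fixed block). 

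Bmp1, a metalloprotease that processes collagen and BMP antagonists, was higher in liver from -1.48 to -0.41 (-0.97 ± 0.17, adjusted p = 0.00437, and 0.0605 with the fixed block). Tgfbi, a matrix protein induced by TGF-beta, had -0.50 ± 0.15 (adjusted p = 0.0349, and 0.155 with the fixed block). Tgfbrap1, a receptor-associated protein, had 0.80 ± 0.26 (adjusted p = 0.0469, and 0.123 with the fixed block), with mouse 2 at 1.67 and 1.81 and the other mice from 0.02 to 0.82. The ligand Tgfb3 had 0.41 ± 0.13 (adjusted p = 0.0452, and 0.198 with the fixed block), and its sign turned as deposited (-0.04). Differences for Tgfb2 (-0.03), the endothelial receptor Acvrl1 (-0.04), Bmp4 (0.18) and the co-receptor Tgfbr3 (0.37, adjusted p = 0.0505) did not pass. The Acvrl1 probes lay on opposite sides of 0, and neither was called. Of 43 listed partners 18 were tested, 3 higher in kidney and 3 in liver. The latent TGF-beta binding proteins Ltbp3 (1.16) and Ltbp2 (-2.14) differed in opposite directions, Smad5 was higher in kidney (0.65, adjusted p = 0.0641 with the fixed block), and Hjv, the BMP co-receptor of iron regulation, was higher in liver (-1.55).

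**Figure D2:**
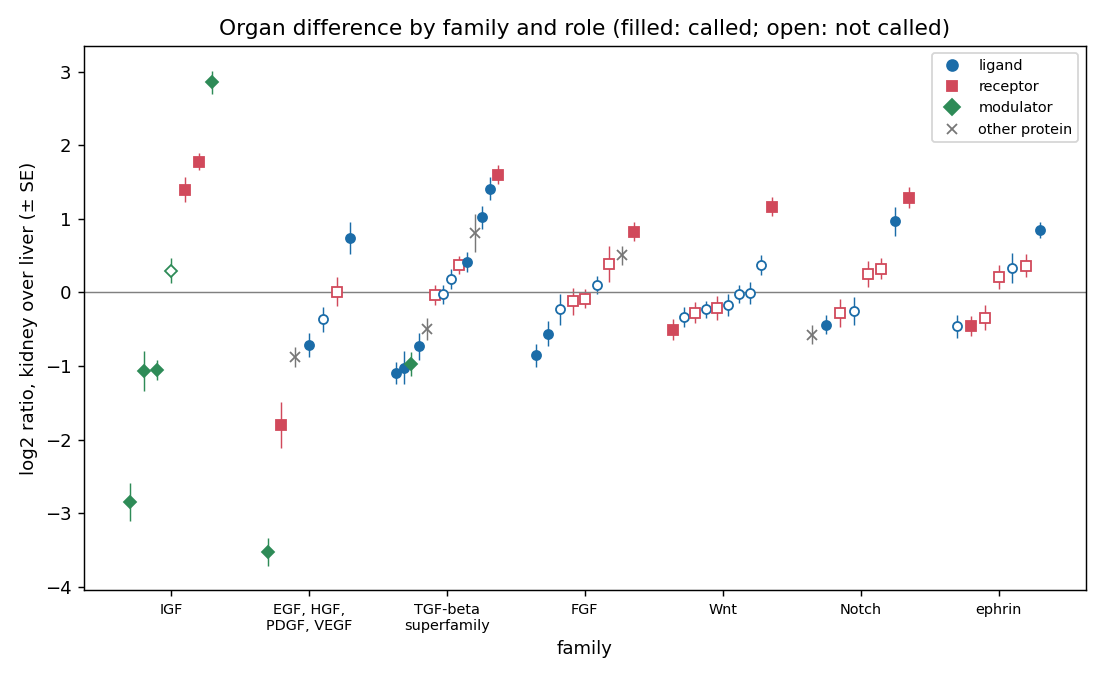
Kidney over liver (log2, centred arrays) of all 62 tested genes by family, with the SE as a bar, filled points for genes called, open points for genes not called and crosses for the other proteins, all of them called. The IGF and TGF-beta families reach far on both sides of 0, and in the Wnt family Fzd4 (1.17) stands apart from genes between -0.51 and 0.37.

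Of 9 fibroblast growth factor genes tested, 2 were higher in each organ, with Fgfr1op2 counted among those of the kidney though it shares only the name. Fgfr1, a receptor of mesenchymal and epithelial cells, had 0.58, 1.21 and 0.99 on the kidney arrays and 0.72, 0.87 and 0.56 on the liver arrays. Every average favoured kidney after centring (0.82 ± 0.13, adjusted p = 0.00196), while mouse 2 as deposited had -0.16 and -0.46 and the call was lost (0.37, adjusted p = 0.289). Without mouse 2 the Fgfr1 difference was 0.71 (limma adjusted p = 0.0042). Fgf4, a ligand of the early embryo, had -0.95, -0.94 and -0.20 on the kidney arrays and -1.23, -1.20 and -0.61 on the liver arrays. It was called higher in liver (-0.85 ± 0.16, adjusted p = 0.00398), with an adjusted p of 0.0828 without mouse 1. Fgf9, a ligand of nephron progenitors, ranged from -1.28 to -0.01 (-0.56 ± 0.17, adjusted p = 0.0374, and 0.122 with the fixed block). Fgfr1op2 had 0.50 ± 0.13 (adjusted p = 0.0177, and 0.12 with the fixed block).

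Receptors Fgfr2 (-0.08), Fgfr4 (-0.12), which with Klb receives the bile acid signal Fgf15 in hepatocytes, and Fgfrl1 (0.38) were not called, nor were the ligands Fgf10 (-0.23) and Fgf18 (0.10). Centring decided the sign of Fgfr4 in mouse 2, at 0.53 and 0.39 against values from -0.63 to -0.31 in the other mice. Without mouse 2 the Fgfr4 difference was -0.41 and passed on the liver side (adjusted p = 0.0259), and Fgf10 did likewise at -0.55 (adjusted p = 0.0325). Of 18 listed FGF partners 8 were tested, 3 higher in kidney and 2 in liver. The heparan sulfate carriers that hold FGFs at the cell surface lay on both sides, with Gpc4 higher in kidney (2.05) and Sdc1 (-1.66) and Gpc1 (-1.07) higher in liver. Spry2, a feedback inhibitor, was higher in kidney (1.17).

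Of 6 Wnt ligands tested, limma called 0, with an unadjusted p under 0.05 for 2, Wnt1 (-0.33) and Wnt7a (0.37), the lowest and highest. Without mouse 2, Wnt6 passed on the liver side (-0.36, adjusted p = 0.0479), and with mouse 2 aligned Wnt7a passed on the kidney side (0.41, adjusted p = 0.0448). Wnt4, which drives formation of the nephron epithelium, had 0.22, -0.49 and 0.32 on the kidney arrays and 0.11, -0.25 and 0.03 on the liver arrays. Its values scattered on both sides of 0 (-0.01 ± 0.15, adjusted p = 0.966). Of the 4 Frizzled receptors tested, Fzd4, the receptor for norrin and Wnt in endothelium, had 0.97, 1.37 and 1.22 on the kidney arrays and 1.09, 1.39 and 0.97 on the liver arrays. These averages lay close together after centring, and the difference was 1.17 ± 0.12, or 2.24-fold (adjusted p = 0.00022), though 0.72 and not called as deposited (adjusted p = 0.0995). Without mouse 2 the Fzd4 difference was 1.06 (limma adjusted p = 0.000445). Fzd3 was called higher in liver (-0.51 ± 0.14, adjusted p = 0.0346, and 0.239 with the fixed block), and Fzd8 (-0.28) and Fzd9 (-0.21) were not called. Among the partners, 7 of 18 tested Wnt partners of 42 listed were higher in kidney and 2 in liver. The largest were secreted Wnt antagonists, Frzb (2.08) and Sfrp1 (1.83) higher in kidney and Sfrp2 (-0.95) in liver, followed there by the signal transducer Dvl2 (-0.60, adjusted p = 0.0888 with the fixed block).

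Of 8 Notch genes tested 2 were higher in each organ. Notch3, the receptor of vascular smooth muscle and mesangial cells, had 1.10 and 1.62 on the kidney arrays of mice 1 and 2 and 1.05, 1.24 and 1.37 on the liver arrays. All 5 averages were above 1 after centring (1.29 ± 0.15, 2.44-fold, adjusted p = 0.000627), and as deposited the difference was 0.72 and not called (adjusted p = 0.144). Dll4, the ligand of arterial and capillary endothelium, had 0.76 and 1.31 on the kidney arrays of mice 1 and 2 and 0.98, 1.42 and 0.28 on the liver arrays. Its difference was 0.96 ± 0.20 (adjusted p = 0.00974), and 0.40 as deposited (adjusted p = 0.288). Jag1, the ligand of bile duct formation, was called higher in liver (-0.44 ± 0.13, adjusted p = 0.0416, and 0.246 with the fixed block), as was Jagn1, a protein of the secretory pathway that shares only the name (-0.58 ± 0.13, adjusted p = 0.0105, and 0.0704 with the fixed block). The receptors Notch1 (-0.28), Notch2 (0.32) and Notch4 (0.25) and the ligand Jag2 (-0.25) were not called. Of 25 listed Notch partners 13 were tested, 1 higher in kidney and 2 in liver. Furin, the protease that cleaves Notch on its way to the surface, was higher in kidney (1.53 ± 0.32). Its averages scattered, with 0.45, 1.64 and -0.03 on the kidney arrays and 3.70, 1.23 and 2.20 on the liver arrays. As deposited the Furin difference was 1.08 and not called (limma adjusted p = 0.123), and without mouse 2 it was 1.58 (adjusted p = 0.0026). Psen2, a gamma-secretase subunit (-1.55), and Hes6 (-0.69, adjusted p = 0.12 with the fixed block) were higher in liver.

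Ephrins and their receptors guide cells by contact, and 1 of 7 tested genes was higher in each organ. Efnb3 had 0.99, 0.96 and 0.85 on the kidney arrays and 0.77, 0.91 and 0.61 on the liver arrays. It varied little between mice after centring (0.85 ± 0.11, adjusted p = 0.000804), while as deposited mouse 2 had -0.41 and -0.42 and the call was lost (0.40, adjusted p = 0.29). Its probe was dim, with 62.5% of values recurring. Without mouse 2 the Efnb3 difference was 0.80 (limma adjusted p = 0.00148). Epha4 was called higher in liver (-0.46 ± 0.14, adjusted p = 0.0335, and 0.154 with the fixed block). Ephb4, the receptor of venous endothelium (0.21), Efnb1 (0.33), Ephb3 (0.36), Epha5 (-0.34) and Efna4 (-0.46, adjusted p = 0.0533) were not called.

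**Figure D3:**
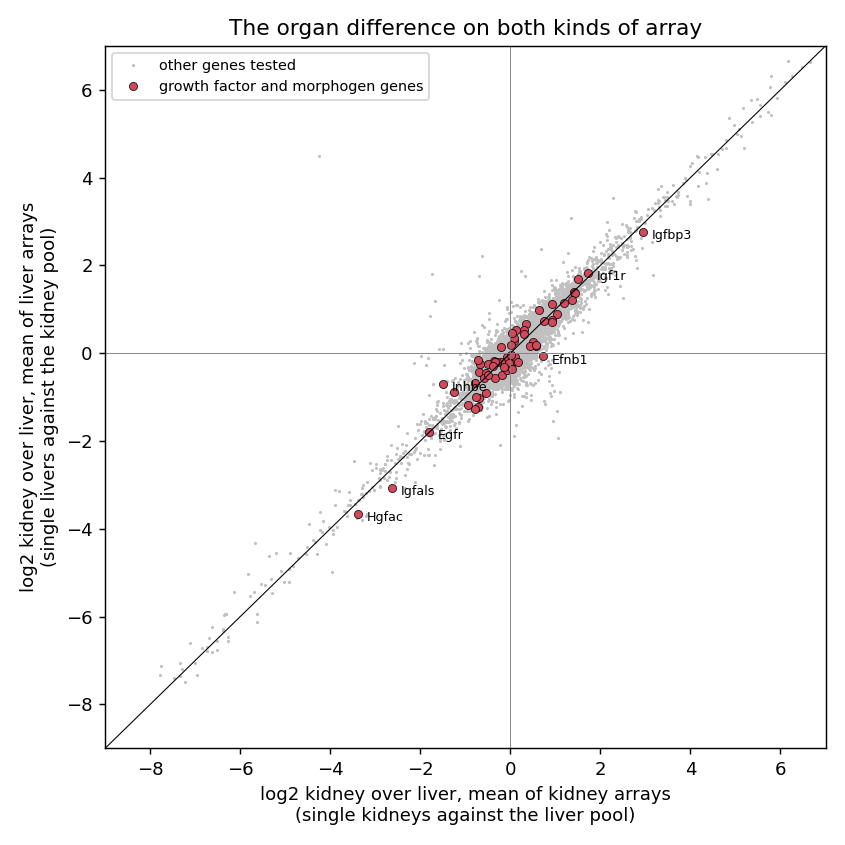
Kidney over liver (log2, centred) on the liver arrays against the kidney arrays, averaged over mice, for the growth factor and morphogen genes (red) and all other tested genes (grey), with the line of equality. The genes follow the line from Hgfac to Igfbp3, and 0 of 62 were called different between the kinds of array.

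The kinds of array differ in which organ was pooled. The term for array kind was called by limma in 0 of 62 genes and 0 of 9047 in all (0%), with an unadjusted p under 0.05 in 1 and 135 genes. The averages of a mouse were taken as independent, which can make the p-values of this term larger than they should be. With the mouse number as a random block the count among the 62 was also 0. A count of 0 does not show that the kinds of array agree. Kidney arrays alone called 10 genes higher in kidney and 6 in liver (10% and 4.58% of all genes), and liver arrays alone 11 and 9 (12.8% and 6.53%). The median SD between mice was 0.361 for these genes and 0.367 for all, and that between repeat arrays 0.212 and 0.196. The spread between mice holds the scaling of mouse 2 as well as differences between animals, and these cannot be told apart. The smallest called difference among these genes was 0.41. Differences well below that size were not detectable with these mice.

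**Figure D4:**
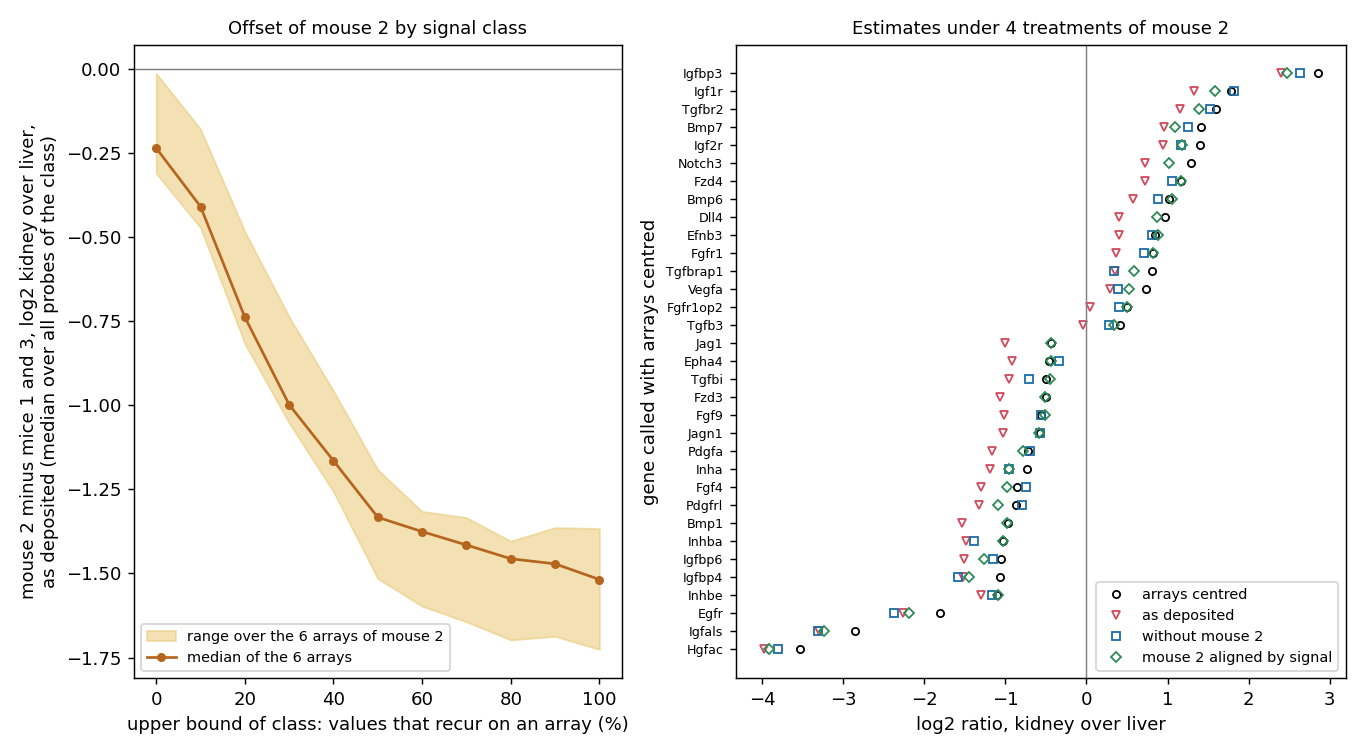
On the left, the gap of mouse 2 to mice 1 and 3 (log2, as deposited) by the share of values that recur on an array, as the median and range over 6 arrays. On the right, kidney over liver (log2) of the called genes with arrays centred, as deposited, with mouse 2 aligned by signal, or with mouse 2 left out. The gap widens as values recur more often. Differences as deposited are below the centred ones for each gene drawn, because centring moved every value of mouse 2 towards kidney. Igfbp3, Igf1r (the mean of 2 probes that disagreed), Tgfbr2, Bmp7 and Igf2r keep their kidney call under each treatment.

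Markers of cell types also differed between the organs. Of 5 endothelial markers tested, 1 was higher in kidney (Emcn, 1.18) and 1 in liver (Ehd3, -0.68, adjusted p = 0.0827 with the fixed block). Their median was 0.27. Among genes described above as endothelial, Fzd4 and Dll4 were higher in kidney after centring but not called as deposited. Acvrl1 (-0.04) and Ephb4 (0.21) were not called. Of 6 markers of fibroblasts, mesangial and stellate cells 3 were higher in kidney and 1 in liver (median 0.70). As deposited 0 of these 6 were called in either direction. Of the receptors described above for mesangial or stellate cells, Notch3 was higher in kidney after centring but not called as deposited, and Pdgfrb (0.01) was not called. Of 5 macrophage markers 3 were higher in liver, among them Tyrobp (-2.47) and the Kupffer cell lectin Clec4f (-1.46), and 1 in kidney. Of 5 cholangiocyte markers 2 were higher in kidney and 1 in liver. Collecting duct markers were higher in kidney in 4 of 5 genes and the remaining one, Slc4a1, in liver (-0.60, and adjusted p = 0.141 with the fixed block). Podocyte markers were higher in kidney in 2 of 2 genes, and markers of the loop and the distal tubule in 2 of 3. Lymphocyte markers had 1 of 4 genes higher in liver, and the single erythroid marker was not called. The part of cell composition in the differences of the growth factor genes was not tested.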

How the data were processed

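The deposited values are log2 ratios of 2-colour arrays with 20419 probes. Per the labels' protocols the authors subtracted background from mean intensities and scaled each array to a median ratio of 1. Which dye each sample carried is not given in the sources used here. Between 15480 and 19432 probes had a value on an array. Probes with 1 symbol in the platform annotation (11723, of which 11590 matched RefSeq) were averaged per gene.

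Arrays were centred on their median, turned to kidney over liver and averaged per mouse and organ. In R 4.3.3, limma 3.58.1 took the 6 averages, with a term for array kind, for genes with at least 2 mice on each kind. Tests were two-sided, with Benjamini-Hochberg adjustment over all 9047 genes at 0.05. The fit was also run on simulated data with independent noise in each average. Those data held no mouse effect and no gap of mouse 2, so they cannot show the error rate under either. Nothing in the labels tells more of the replicates than 3 mice, and the pools give no spread.

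Mouse numbers pair the samples, since the labels give kidney and liver of the same animals: deviations of a mouse on both kinds of array correlated at 0.568, 0.787 and 0.566 over 7514 genes. The fit took them as independent, which can make its SE and p-values for the organ difference smaller than they should be, and those for array kind larger. The alternatives included this pairing as a replicate block. A probe was bright where at most 10% of its values recurred exactly on their array and dim above 50%, on the 10 arrays of mice 1 and 3. Aligning mouse 2 by signal was added after seeing the data.

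Genes named with full values were the 10 largest called differences in each direction with 1 sign in all averages, and a list chosen for textbook roles. Members and lists were chosen with earlier results of these data known. Listed genes without a probe of their own, among them Egf, Hgf and Vegfc, were not analysed here. Figures were drawn with matplotlib 3.10.9.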

Additional observations from a re-analysis of the deposited data

Results flagged for a closer look

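The array values of the 62 tested genes were compared within the kidney arrays and within the liver arrays, in 117 groups of 4 to 9 arrays, for a single array far from the others, and 4 genes had such a value, all on liver arrays. For Fgf4, array 3b, a repeat of mouse 3, read -0.0137, while the other 8 liver arrays lay between -1.47 and -0.88. For Igfbp1, array 1d of mouse 1 read -2.22 and the others -0.28 to 0.73. For Wnt7a, array 3d of mouse 3 read -1.22 and the others 0.01 to 0.64. For Notch2, array 2e of mouse 2 read 1.44 and the others 0.23 to 0.83. The arrays repeat 3 mice, and chance alone marks about 1 in 20 such groups. With mouse 3 left out Fgf4 was still called higher in liver.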

How the results depend on the processing

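Of 898 values of the 62 tested genes under the alternatives, 772 kept their side of the threshold, 44 of these with the sign turned in genes not called. Another 116 kept direction but no longer passed, 9 newly passed, and 1 called gene changed direction, Tgfb3 as deposited (-0.0404). The count of genes higher in kidney (15) fell to 5 as deposited, 6 with mouse 2 moved by its offset over bright probes (8.4% of all genes) and 3 of 9 genes with bright probes only (46% of all such genes), and was 9 to 11 with each mouse left out. The count higher in liver (18) was 6 on kidney arrays only, 9 on liver arrays only, 11 with the mouse number as a random replicate block, 8 as a fixed replicate block, 4 with bright probes only (20.5%), 10 over ligands and receptors only, and 5 (without mouse 1) to 16 with each mouse left out, 7 without mouse 3. The median difference (-0.06) moved to -0.57 as deposited, -0.46 with the bright-probe offset, -0.16 on liver arrays only and -0.28 with bright probes only, and stayed between -0.09 and -0.02 with each mouse left out. Fewer values or genes went into the fits with single kinds of array, single mice left out and bright probes only. The cause of the changes in the counts was not tested. The count of genes that differed between kinds of array was 0 under each alternative that could give it. Calls on the 6 partner lists (20 higher in kidney and 11 in liver of 85 tested) became 4 and 10 as deposited, and 10 and 7 with the fixed replicate block. Intensities were not used here, so the limit that signal over background sets for genes taken as dim was not measured.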

Other observations

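Of the 68 genes, 6 had too few values to be tested. Pdgfb, the ligand of pericyte recruitment, had -0.18 and -1.14 on the liver arrays of mice 1 and 2. Wnt10b had -0.71 on the kidney arrays of mouse 2 and 0.87, -0.82 and 0.85 on the liver arrays of mice 1, 2 and 3, so that mouse 2 lay apart from the others. Igf2bp1, an RNA-binding protein of the fetal organs, had -0.17 and -0.01 in mouse 1. Fgf1 had 0.49 in mouse 1, and Fgf7 and Igf2 had a value on a single array each, 1.66 and -0.07.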
